A study of Mus musculus with 10 samples.

Results

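The mRNAs of 10 transport proteins of the blood-brain barrier, Abcg2, Abcb1a, Abcc4, Slco1a4, Slco1c1, Slc2a1, Slc7a5, Slc16a1, Mfsd2a and Tfrc, were followed in brain RNA of Slc20a2-HO mice given FTY720 or placebo. They were taken by gene name from a table of 54532 genes, each name gave 1 row, and all 10 passed the filter on low counts that left 17665 genes. The list was chosen by function with earlier results of the FTY720 comparison in view, so the FTY720 and placebo values of the 10 genes are a description, and where their p-values are counted against a limit the count is not evidence of an effect. All 10 mice carried the gene trap allele Slc20a2 tm1a(EUCOMM)Wtsi on both chromosomes, and no wild type library was analysed here. From the age of 1.5 months, 6 mice received 0.5 mg/kg FTY720 in dimethyl sulfoxide and 4 mice received dimethyl sulfoxide alone, by injection into the peritoneum 3 times a week for 12 weeks, and RNA was then extracted from a part of each brain after perfusion with buffer. FTY720 (fingolimod) modulates the receptors of sphingosine-1-phosphate, and the comparison was made to learn what the drug changes in the brains of mice that calcify.

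The blood-brain barrier is formed by the endothelial cells of brain capillaries, which are joined by tight junctions, so that most polar solutes cross only on a carrier. ATP-driven pumps on the side facing the blood return drugs and other foreign compounds to the plasma, while carriers for glucose, amino acids, lactate, lipids and hormones bring in what the tissue needs, and the transferrin receptor takes up iron. Several of these genes are active in further brain cells (Slc2a1, Slco1c1 and Slc16a1 in astrocytes, Tfrc in neurons and in cells that make myelin), so a whole-brain level is a sum over cell types. In such RNA a smaller number of endothelial cells and less RNA in each cell cannot be told apart.

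The libraries fell apart along a digit in the names of the mice. Each name holds F (FTY720) or P (placebo), then 1 or 3, then a number, as in F1-622, and the sources used here do not explain the digit. The digit 1 was carried by 3 FTY720 mice and 1 placebo mouse, and the digit 3 by 3 FTY720 mice and 3 placebo mice. Markers of cerebellum summed to between 833 and 955 CPM (TMM-scaled counts relative to library size) in the 4 mice with the digit 1 and to between 2487 and 3079 CPM in the 6 mice with the digit 3. The treatment differences of the 10 genes are therefore given over all mice, with the digit as a covariate, and within the digit 3. Totals ran from 14772745 to 18303981 counts per mouse, of which the 10 genes took 0.0447% to 0.0664%. The targeted gene, Slc20a2, had 89 to 294 counts per mouse (6.31 to 17.0 CPM), a whole-gene value that does not check the trap.

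Per unit of the gene length in the count table (FPKM), Slc2a1, which encodes the glucose carrier GLUT1, had the highest level of the 10. It had 23.6 ± 4.57 FPKM (SD, n = 10), followed by the transferrin receptor gene Tfrc at 21.9 ± 4.78 FPKM. That length exceeds the longest transcript unevenly, with 6414 and 3823 bases for Slco1a4, 6185 and 4890 for Tfrc, and 3506 and 3260 for Slc2a1. The order of the genes therefore depends on the length used and may differ per transcript. Slc2a1 exceeded Tfrc in 6 of 10 mice, so the order of these neighbours did not hold in every mouse. Slc7a5, the large neutral amino acid carrier LAT1, had 15.6 ± 2.36 FPKM, and Slc16a1, the monocarboxylate carrier MCT1, had 12.03 ± 1.34 FPKM. Slco1c1 (thyroid hormone and organic anions) followed with 9.65 ± 1.44 FPKM, then Mfsd2a (lysophosphatidylcholine lipids) with 8.43 ± 1.71 FPKM and Slco1a4 (organic anions) with 7.11 ± 2.91 FPKM. The efflux pumps were lowest: Abcb1a (P-glycoprotein) had 5.16 ± 1.63 FPKM, Abcg2 (BCRP) had 2.32 ± 0.401 FPKM and Abcc4 (MRP4) had 2.08 ± 0.440 FPKM. From Tfrc to Abcg2 each gene exceeded the next in 7 to 10 of the 10 mice, with 10 of 10 only for Abcb1a over Abcg2, so most neighbouring levels overlapped between mice. The library total implied by the FPKM values differed from the counted total, by -3.81% to -1.48% in the digit 1 mice and 1.46% to 4.55% in the digit 3 mice, which enters the means and SDs but not the order within a mouse.

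The start regions of the genes differ widely in the density of CG pairs, the dinucleotide whose methylation accompanies silencing. RefSeq windows of 300 bases on GRCm38.p6, running from 250 bases before to 50 bases after an annotated start, were found for 9 of the 10 genes, in 13 windows. The windows of Slco1a4 and Abcb1a are shown because these genes had the largest FTY720 differences, and those of Slco1c1, Slc2a1 and Slc16a1 because theirs were the 3 smallest over all mice, with CG pairs in capitals. They lie at chr6:141856171-141856470 on the minus strand and at chr5:8566841-8567140, chr6:141524104-141524403, chr4:119108495-119108794 and chr3:104638414-104638713 on the plus strand.
Slco1a4: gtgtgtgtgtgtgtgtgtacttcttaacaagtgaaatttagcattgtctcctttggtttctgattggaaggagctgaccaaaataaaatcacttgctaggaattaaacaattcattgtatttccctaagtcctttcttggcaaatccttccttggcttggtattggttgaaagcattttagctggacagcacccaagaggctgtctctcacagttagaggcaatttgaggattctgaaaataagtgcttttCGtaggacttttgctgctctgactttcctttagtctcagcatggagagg
Abcb1a: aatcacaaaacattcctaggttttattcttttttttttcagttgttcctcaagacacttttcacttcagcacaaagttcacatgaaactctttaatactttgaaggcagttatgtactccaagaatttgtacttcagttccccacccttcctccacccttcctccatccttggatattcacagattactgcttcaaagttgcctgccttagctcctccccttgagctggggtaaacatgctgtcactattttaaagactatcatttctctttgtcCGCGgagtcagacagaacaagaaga
Slco1c1: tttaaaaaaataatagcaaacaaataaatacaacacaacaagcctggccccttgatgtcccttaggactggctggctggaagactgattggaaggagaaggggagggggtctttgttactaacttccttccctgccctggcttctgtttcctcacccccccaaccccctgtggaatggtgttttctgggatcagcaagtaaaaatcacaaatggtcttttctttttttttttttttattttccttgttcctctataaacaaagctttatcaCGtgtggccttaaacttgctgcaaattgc
Slc2a1: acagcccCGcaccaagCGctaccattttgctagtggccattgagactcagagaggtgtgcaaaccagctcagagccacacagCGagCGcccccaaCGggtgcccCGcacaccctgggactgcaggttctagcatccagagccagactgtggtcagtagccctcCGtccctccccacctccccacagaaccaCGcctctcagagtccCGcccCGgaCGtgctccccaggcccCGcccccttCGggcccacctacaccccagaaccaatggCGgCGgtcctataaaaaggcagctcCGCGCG
Slc16a1: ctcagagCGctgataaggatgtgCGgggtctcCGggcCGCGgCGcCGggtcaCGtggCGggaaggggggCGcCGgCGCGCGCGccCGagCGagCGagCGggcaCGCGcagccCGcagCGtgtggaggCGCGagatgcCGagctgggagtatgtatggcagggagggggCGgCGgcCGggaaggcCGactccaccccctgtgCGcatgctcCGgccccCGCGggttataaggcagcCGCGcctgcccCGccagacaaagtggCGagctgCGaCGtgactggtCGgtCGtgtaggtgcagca
The Slco1a4 window held 1 CG pair and the Abcb1a window 2, while Slco1c1 held 1, Slc2a1 18 and Slc16a1 42, beside a median of 7 over all 32851 windows, so genes with small differences had windows both poor and rich in CG. Among the remaining windows Mfsd2a held 22 pairs, Tfrc 30 in each of 2 overlapping windows, Abcc4 41 and 6, and Abcg2 3, 10 and 28. The Abcb1a start used by RefSeq lies 92986 bases before the start of the gene in the count table, so this window may not be the one that counted transcripts use. The core of the hypoxia response element, ACGTG on either strand, was present in 7 of the 13 windows, which belong to 6 genes, and in 19.6% of all windows. Both Tfrc windows are among the 7 and hold the same site, which is thus counted in each. The overlapping palindrome CACGTG was in 3 of the 13 windows and 7.15% of all. The TCF/LEF letters CTTTGAT were in none of the 13 windows and in 3.73% of all, which says nothing of the factor elsewhere.

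All 10 genes had a higher fitted level in FTY720-treated than in placebo mice, with log2 fold changes between 0.03 (Slc16a1) and 0.61 (Slco1a4) and a median of 0.32, beside a median of -0.00298 over all 17665 genes. Of the 10, 6 had an unadjusted p under 0.05 (edgeR quasi-likelihood test), all in the direction of FTY720: Slco1a4, Abcb1a, Abcg2, Abcc4, Mfsd2a and Slc7a5. This count was 2 without P3-612 or P3-907 and 3 without F3-609 or F3-908. Over all genes 1.04% were called that way, and as the list was chosen with this contrast known nothing is read from the excess. The median of 22 endothelial cell markers in this fit was 0.21 (log2 fold change), and their part in the values of the transporters was not tested. In these fits over all mice without the digit no transporter reached an adjusted p under 0.05, nor did any other gene, by edgeR (461 genes at an unadjusted p under 0.05), DESeq2 (550) or limma-voom (475).

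**Figure D1:**
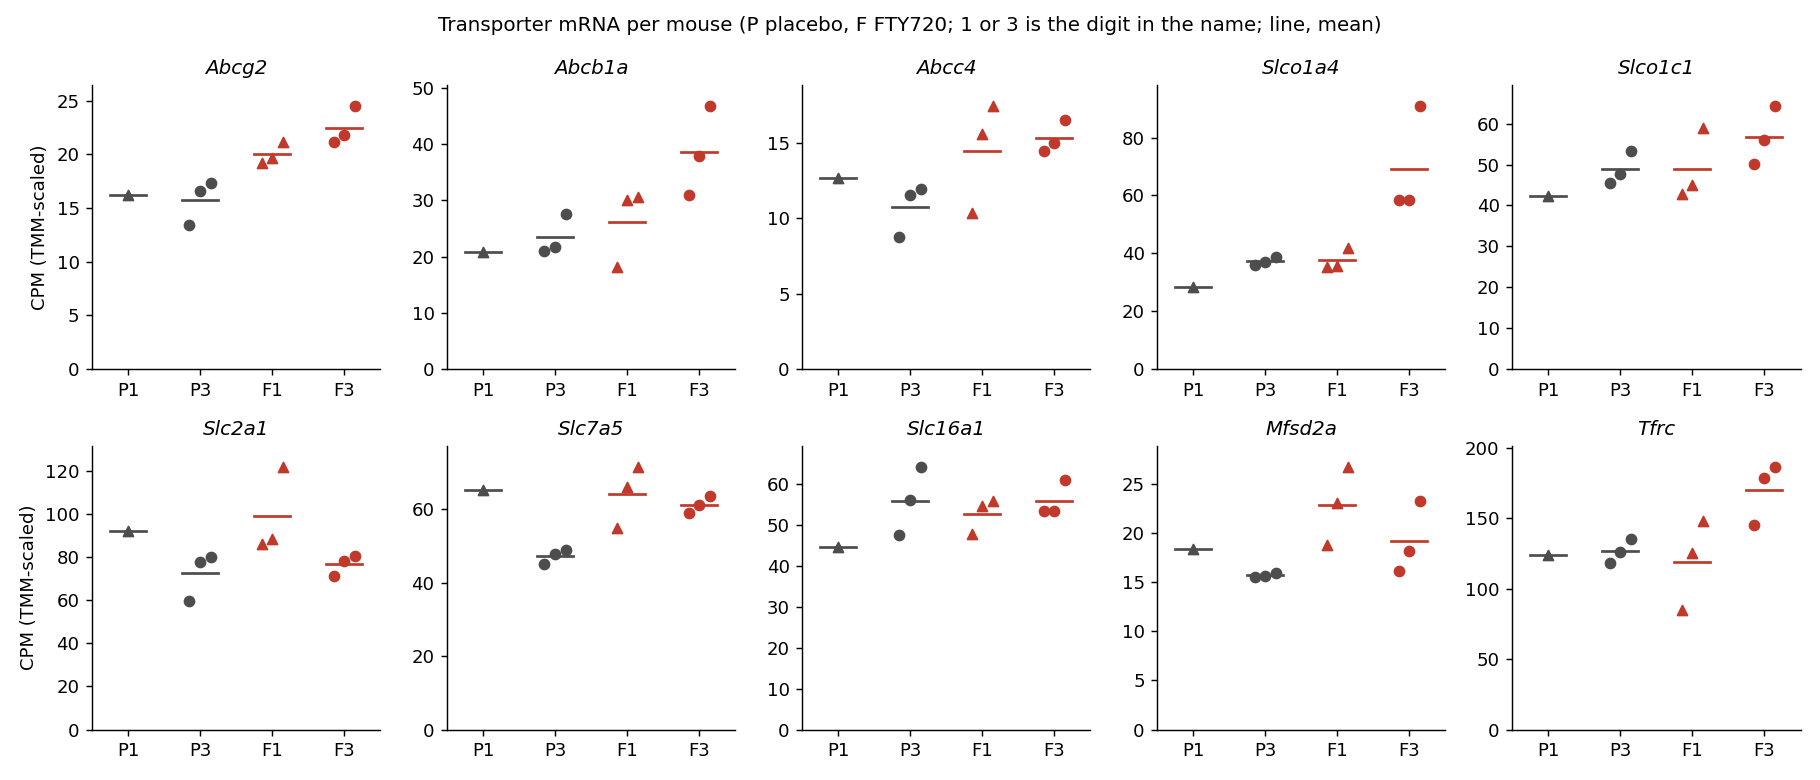
TMM-scaled CPM of each transporter gene (y axis, from 0) in placebo mice (P, grey) and FTY720 mice (F, red) with the name digit 1 (triangles) or 3 (circles); each point is a mouse and each line a group mean. All 6 FTY720 mice lay above the 4 placebo mice in Abcg2, while in Slco1a4 the 3 FTY720 mice with the digit 3, at 58.4 to 90.9 CPM, stood above all others.

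Among the efflux pumps, Abcg2, which exports sulfated and other amphipathic compounds (chromosome 6, 58584523 to 58695676, plus strand, GRCm38), separated the groups completely. Its level was 19.2, 19.7 and 21.1 CPM in the FTY720 mice with the digit 1, 24.5, 21.8 and 21.2 CPM in those with the digit 3, and 16.2, 17.3, 13.5 and 16.6 CPM in the placebo mice. Every FTY720 mouse exceeded every placebo mouse, which held for 0.436% of all genes and for no other gene of the list. With FTY720 the mean was 21.2 ± 1.87 CPM (SD, n = 6) against 15.9 ± 1.68 CPM (SD, n = 4). The log2 fold change was 0.42 (standard error 0.12), and leaving out any mouse left it between 0.35 and 0.46. With the digit as covariate it was 0.44 (standard error 0.11), and within the digit 3 it was 0.52 (standard error 0.15).

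Abcb1a encodes the P-glycoprotein of mouse brain capillaries, which exports many lipophilic drugs (chromosome 5, 8660077 to 8748575, plus strand). The 3 FTY720 mice with the digit 3 had 46.8, 37.9 and 31.0 CPM, above the 20.9, 27.7 and 21.7 CPM of the placebo mice with that digit. With the digit 1 the FTY720 mice had 18.1, 30.1 and 30.5 CPM and the placebo mouse 20.8 CPM, so F1-622 was the lowest of all 10. The log2 fold change was 0.51 (standard error 0.21) over all mice, 0.59 (standard error 0.17) with the digit as covariate and 0.73 (standard error 0.18) within the digit 3. Of the 100-base stretches of its longest transcript, 7.72% also occur in Abcb1b or Abcb4, and Abcb1b itself had 2.95 to 5.90 CPM. Abcb1a also shares 553 exon bases with Gm42686 on the opposite strand, whose reads an unstranded library cannot separate.

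Abcc4 encodes a pump for organic anions such as nucleotide analogs and conjugated steroids (chromosome 14, 118482692 to 118706219, minus strand). Its level lay between 14.5 and 16.5 CPM in the 3 FTY720 mice and was 8.73, 11.5 and 11.9 CPM in the placebo mice with the digit 3. In the digit 1 mice the values were 10.4, 15.6 and 17.4 CPM with FTY720 and 12.6 CPM with placebo. As for Abcb1a, the groups were apart within the digit 3 and overlapped over all mice through F1-622. The log2 fold changes were 0.41 (standard error 0.16) over all mice, 0.41 with the digit as covariate and 0.52 within the digit 3.

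The organic anion carrier Slco1a4 (chromosome 6, 141805440 to 141856199, minus strand) had the largest difference of the list. FTY720 mice with the digit 3 had 90.9, 58.4 and 58.5 CPM, against 37.0, 38.6 and 36.0 CPM in the placebo mice with that digit. The digit 1 mice had 35.7, 41.9 and 35.1 CPM with FTY720 and 28.4 CPM with placebo, so within each digit every FTY720 mouse exceeded every placebo mouse, although over all mice the groups overlapped. Over all mice FTY720 gave a mean of 53.4 ± 21.2 CPM (SD, n = 6) against 34.99 ± 4.55 CPM (SD, n = 4), and the log2 fold change was 0.61 (standard error 0.25), which dropped to 0.39 without F3-609, the mouse with 90.9 CPM. It was 0.73 (standard error 0.15) with the digit as covariate and 0.91 (standard error 0.18) within the digit 3, where it was 0.65 without F3-609. Only 1.101% of its 100-base stretches occur in Slco1a1 or Slco1a5, which had 0 and 3 to 13 counts per mouse, and Slco1a6 had 0 or 1.

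Slco1c1, a carrier of thyroxine, lies near Slco1a4 on chromosome 6 (141524368 to 141570177, plus strand). It ranged from 42.7 to 64.3 CPM with a median of 53.0 in FTY720 mice and from 42.3 to 53.4 CPM with a median of 46.6 in placebo mice. The groups overlapped within the digit 3 as well, and the log2 fold change was 0.16 (standard error 0.13) over all mice, 0.21 (standard error 0.12) with the digit as covariate and 0.22 (standard error 0.13) within that digit. Without F3-609 it was 0.097 over all mice and 0.12 within the digit.

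Among the nutrient carriers, Slc7a5, which brings leucine, phenylalanine and L-DOPA into the brain in exchange for other amino acids, separated the groups in the mice with the digit 3 (chromosome 8, 121881150 to 121907694, minus strand). The FTY720 mice with that digit had 61.1, 59.0 and 63.6 CPM and the placebo mice 45.0, 47.8 and 49.0 CPM, which on the log2 scale is higher by 0.38 (standard error 0.10) with FTY720. The digit 1 mice had 54.9, 71.6 and 66.1 CPM with FTY720 and 65.1 CPM with placebo, where the means differed by -0.03 on the log2 scale. Over all mice the log2 fold change was 0.28 (standard error 0.12), and with the digit as covariate 0.24 (standard error 0.10). Without P1-623, the placebo mouse of the digit 1, these were 0.41 and 0.38.

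Slc2a1 (chromosome 4, 119108711 to 119137983, plus strand) overlapped between the treatment groups. FTY720 mice ranged from 71.0 to 122 CPM with a median of 83.3, and placebo mice had 77.6, 92.0, 59.8 and 79.8 CPM, over all mice and within the digit 3. The log2 fold change of 0.18 (standard error 0.16) was 0.07 without F1-918, the mouse with 122 CPM, and 0.28 without P1-623. It was 0.09 (standard error 0.12) with the digit as covariate and 0.09 (standard error 0.14) within the digit 3, and without P3-904 these were 0.015 and -0.036. Its exons share 105 bases with Gm12868 on the opposite strand.

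Slc16a1, which moves lactate, pyruvate and ketone bodies (chromosome 3, 104638668 to 104658462, plus strand), had the smallest difference. The FTY720 mice had 54.3 ± 4.24 CPM (SD, n = 6), the placebo mice had 53.1 ± 8.81 CPM (SD, n = 4), and the log2 fold change was 0.03 (standard error 0.12). The log2 fold change was negative, between -0.038 and -0.0042, when F3-908, P1-623 or P3-904 was left out, so it had no fixed direction. With the digit as covariate it was 0.08 (standard error 0.11), from 0.0020 without P1-623 to 0.16 without P3-612, and within the digit 3 it was 0.0037 (standard error 0.14).

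Mfsd2a, which carries lysophosphatidylcholine with docosahexaenoic acid and holds down vesicle traffic through brain endothelium (chromosome 4, 122946850 to 122961188, minus strand), had 23.0, 18.8 and 26.7 CPM in FTY720 mice with the digit 1 and 18.2, 16.2 and 23.2 CPM in those with the digit 3. The placebo mice had 18.3 CPM with the digit 1 and 15.5, 15.9 and 15.7 CPM with the digit 3, so each FTY720 mouse exceeded the placebo mice of its own digit. The log2 fold change was 0.36 (standard error 0.15) over all mice, 0.30 (standard error 0.13) with the digit as covariate and 0.30 (standard error 0.16) within the digit 3, where it dropped to 0.14 without F3-908.

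Tfrc, the receptor that takes up iron-loaded transferrin (chromosome 16, 32608920 to 32632794, plus strand), had 187, 145 and 179 CPM in FTY720 mice and 126, 135 and 118 CPM in placebo mice with the digit 3, which did not overlap. With the digit 1 the FTY720 mice had 125, 148 and 84.9 CPM around a placebo value of 124 CPM, and F1-918 was the lowest of all 10 mice. Its log2 fold change was 0.44 (standard error 0.12) within the digit 3 and 0.20 (standard error 0.18) over all mice, where it was 0.12 without F3-609 and 0.32 without F1-918. With the digit as covariate it was 0.26 (standard error 0.15), and 0.43 without P1-623.

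Within the digit 3, 7 of the 10 genes (Abcg2, Abcb1a, Abcc4, Slco1a4, Slc7a5, Mfsd2a and Tfrc) had all 3 FTY720 mice above all 3 placebo mice, beside 6.42% of all genes. With an unadjusted p under 0.05 as the limit, 6 were called higher there, with Tfrc in place of Mfsd2a, beside 2.78% of all genes, and 6 were called higher with the digit as covariate, the same 6 as without it, beside 4.98%. The count with the covariate was 3 without P3-612 and 4 without F3-612, P3-904 or P3-907. The median log2 fold change of the 10 was 0.41 within the digit 3 and 0.28 with the covariate, with medians of -0.00489 and -0.00744 over all genes. In those fits edgeR gave no gene an adjusted p under 0.05, while DESeq2 gave 24 genes with the covariate and 5 within the digit 3, Slco1a4 the only one of the 10 in each case, which is a description as the list was chosen with this contrast known. In the 4 mice with the digit 1, where there was a single placebo mouse and no test was run, the log2 difference of the FTY720 mean from that mouse ran from -0.09 (Tfrc) to 0.40 (Slco1a4). All 3 FTY720 mice exceeded the placebo mouse in 5 of the genes: Abcg2, Slco1a4, Slco1c1, Slc16a1 and Mfsd2a. Of all genes 23.3% did so, and with a single placebo mouse nothing is read from the count.

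The FTY720 effect was not shown to differ between the digits. For the 10 genes the difference of the log2 fold changes, digit 3 minus digit 1, lay between -0.24 (Slc16a1) and 0.49 (Slco1a4, standard error 0.29), and none of the 10 had an unadjusted p under 0.05 in edgeR's fit across all genes. No gene had an adjusted p under 0.05 by edgeR or DESeq2, with 345 and 279 at an unadjusted p under 0.05. The term rests on P1-623 as the only placebo mouse with the digit 1.

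**Figure D2:**
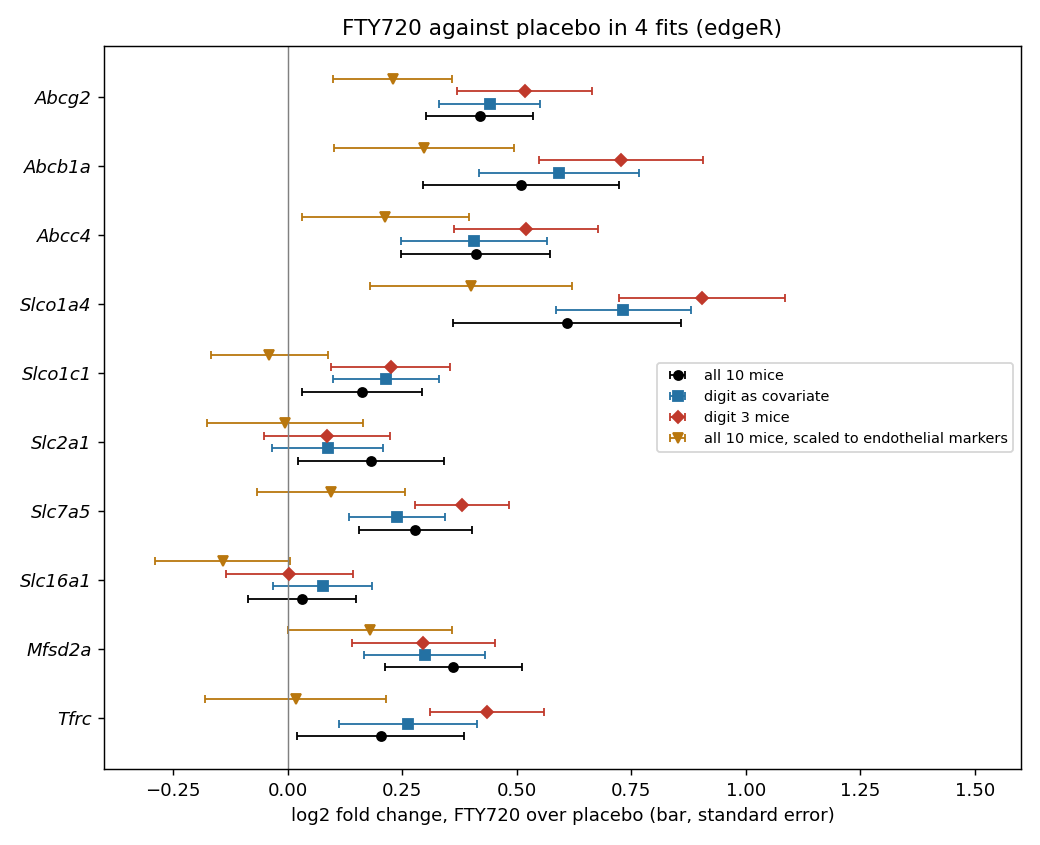
Log2 fold change of FTY720 over placebo (x axis) with its standard error (bars) for each gene in 4 edgeR fits: all 10 mice, the digit as covariate, the 6 mice with the digit 3, and all 10 mice scaled to the summed endothelial markers. Slco1a4 was highest in each fit, and Slco1c1, Slc2a1 and Slc16a1 moved below 0 when scaled to endothelial markers.

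The digit itself went with the level of 2 of the 10 genes. With treatment as a covariate, Slco1a4 was higher in the mice with the digit 3 by 0.72 on the log2 scale (standard error 0.15, adjusted p = 0.00447 by edgeR with Benjamini-Hochberg adjustment over all genes), with means of 53.2 ± 21.2 CPM (SD, n = 6) and 35.3 ± 5.54 CPM (SD, n = 4). This call was kept in all 10 fits that left out a mouse, with adjusted p-values up to 0.0190. Slc2a1 fell by 0.36 on the log2 scale in the mice with the digit 3 (standard error 0.12, adjusted p = 0.0401 by edgeR), from 97.1 ± 16.6 CPM (SD, n = 4) to 74.5 ± 7.96 CPM (SD, n = 6). Every mouse with the digit 3 was below every mouse with the digit 1. The share of all genes separated that way by the digit was not computed, so nothing is read from it. The Slc2a1 call was lost in 5 of the 10 fits that left out a mouse (F1-918, F3-609, F3-612, F3-908 or P1-623), where the adjusted p reached 0.128. It was also lost on log2(FPKM + 0.1) and log2(FPKM + 1) by limma and with the leading digit of the mouse number added in edgeR, with an adjusted p of 0.0538 to 0.0542. Of all genes, 13.9% were called higher and 14.4% lower with the digit 3, so 1 of 10 in each direction is near the background.

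The other 8 genes had no adjusted p under 0.05 for the digit in this fit. Without a filter on low counts 3 of the 10 were called higher and 1 lower, and without F1-622 3 of the 10 were called. Tfrc (0.35, adjusted p = 0.09997 by edgeR) and Abcb1a (0.43, adjusted p = 0.0811) had the next largest positive log2 differences. Mfsd2a (-0.24), Slc7a5 (-0.20) and Abcc4 (-0.02) had negative ones, while Abcg2 differed by 0.10 with a standard error of 0.11. Leaving out 1 mouse moved several of these by over 1.5 times without a change of sign: Slc7a5 was -0.07 without P1-623, Tfrc 0.21 and Mfsd2a -0.16 without F1-918, and Abcb1a 0.28 without F1-622. Abcg2 was 0.049 without F3-609 and 0.17 without P1-623. Abcc4 did change sign, from -0.16 without F1-622 to 0.079 without P1-623, so it had no fixed direction.

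Endothelial markers, too, were mostly higher with FTY720. Of 22 markers of endothelial cells, among them Cldn5, Pecam1, Cdh5 and Tek, none was at 0 in any mouse. Their sum was 434 to 555 CPM (median 496) in FTY720 mice and 419 to 465 CPM (median 428) in placebo mice. By log2 fold change over all mice 18 of the 22 were positive, with a median of 0.21 over all mice and 0.29 within the digit 3. The 4 negative ones over all mice were Cldn5 (-0.19), Egfl7 (-0.15), Tie1 (-0.11) and Pltp (-0.02). Cldn5 was also negative with the digit as covariate (-0.24) and within the digit 3 (-0.30). With an unadjusted p under 0.05, 4 were higher and none lower over all mice (edgeR), beside 1.04% of all genes called higher. These were Ly6c1 (0.46), Pecam1 (0.43), Podxl (0.39) and Vwf (0.31), the latter 3 encoding a junctional adhesion molecule, a sialomucin and von Willebrand factor. With the digit as covariate 8 were higher, beside 4.98% of all genes, and none lower, and the median was 0.32. The marker list was chosen with earlier results of these data known, so nothing is read from these counts. The arterial and venous markers had a median of 0.09 over all mice, with Vwf the only one of 12 at an unadjusted p under 0.05. Within the digit 3 their median was -0.02, with 5 positive, 7 negative and none past that limit.

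**Figure D3:**
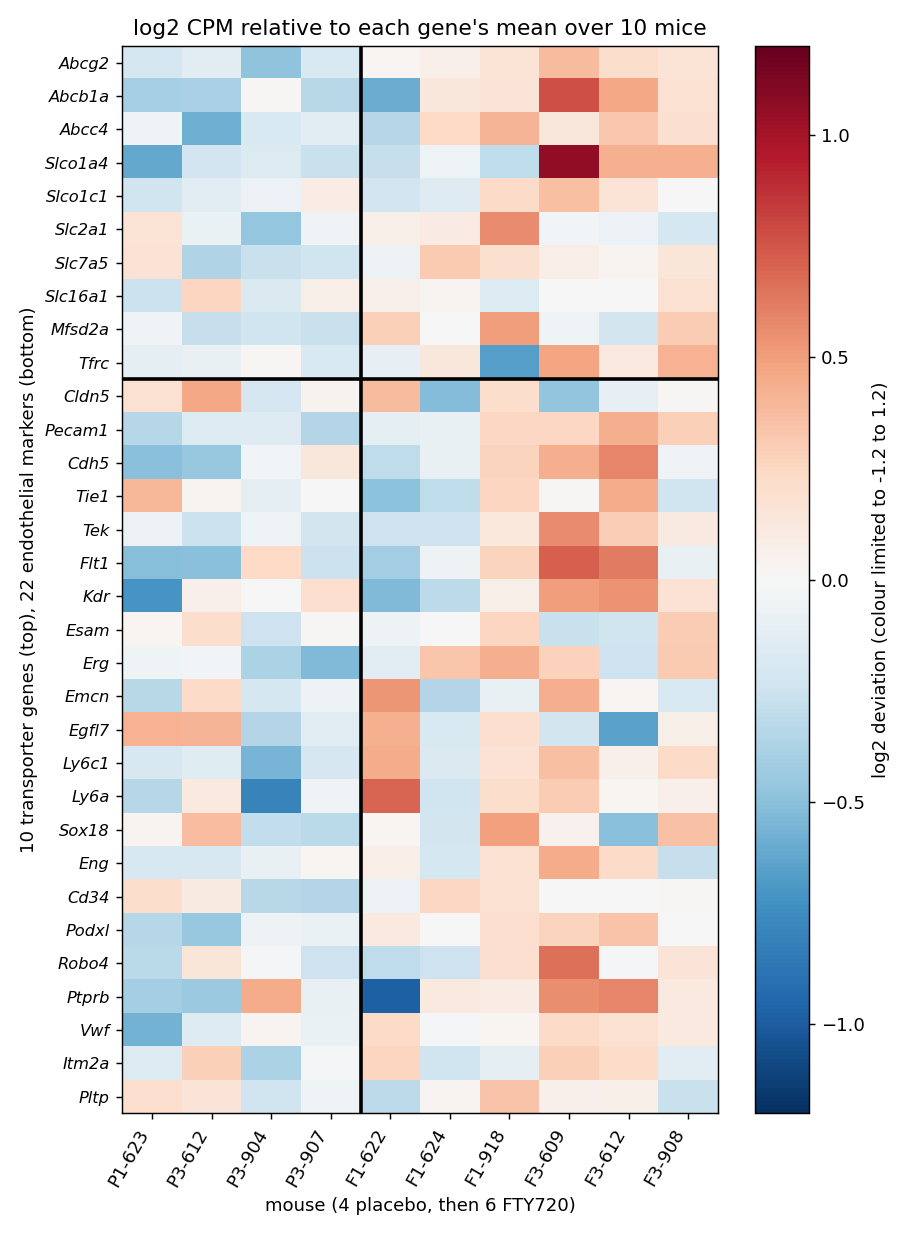
Log2 CPM of the 10 transporter genes (above the line) and the 22 endothelial markers (below it) relative to each gene's mean over the 10 mice, in 4 placebo mice (left) and 6 FTY720 mice (right); red is above the mean and blue below. Slco1a4 and Abcb1a were reddest in F3-609, where Flt1 and Robo4 were also high, while Cldn5 was below its mean there.

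The CPM of each transporter was also set against the endothelial sum of the same mouse. Abcg2 was 4.03% to 4.55% of that sum in FTY720 mice and 3.21% to 3.87% in placebo mice, and it was the only one of the 10 without overlap over all mice, beside 0.0283% of all genes. Over all mice Slco1a4 overlapped, at 6.71% to 16.4% with FTY720 and 6.64% to 9.23% with placebo, as did Abcb1a, at 3.85% to 8.43% and 4.50% to 6.61%. In the mice with the digit 3 the groups of 3 genes did not overlap, beside 0.453% of all genes: Abcg2, Slco1a4 (10.9% to 16.4% against 7.95% to 9.23%) and Abcb1a (6.67% to 8.43% against 4.50% to 6.61%). The other 4 genes that were apart there in CPM did overlap as a share of the sum: Abcc4 was 2.61% to 3.23% with FTY720 and 1.88% to 2.78% with placebo, and Slc7a5 was 10.99% to 13.7% and 9.67% to 11.4%. Mfsd2a was 3.02% to 4.999% with FTY720 and 3.34% to 3.81% with placebo, and Tfrc was 27.1% to 38.4% and 27.04% to 32.3%. These ratios come from the same contrast as the list, so nothing is read from the counts. When all libraries were scaled to this sum in place of TMM, the median of all genes moved to -0.19 (log2), the median of the 10 to 0.14, and none of the 10 had an unadjusted p under 0.05 over all mice, where 0.0849% of all genes were called higher. Within the digit 3 the scaled log2 fold changes of Slco1a4 (0.64, standard error 0.18) and Abcb1a (0.46, standard error 0.19) had one, beside 0.153% of all genes called higher, as they did with the digit as covariate, beside 0.164%. Nothing is read from these counts, as the list was chosen with this contrast known and the scaling moved most genes down. Slco1c1, Slc2a1 and Slc16a1 turned negative under this scaling in each of the 3 fits.

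Markers of other cell types were summed as well, and their part in the values was not tested. Their lists were chosen with earlier results of these data known, so nothing is read from the counts of markers called. Oligodendrocyte markers summed to 5778 to 6690 CPM with FTY720 and 6546 to 7666 CPM with placebo. Of the 10 markers 3 (Mbp, Cnp and Mag) had an unadjusted p under 0.05, all lower with FTY720, beside 277 of all 17665 genes called lower. All 10 oligodendrocyte markers were negative, with a median log2 fold change of -0.24. With the digit 3 their sums did not overlap, at 5813 to 6028 CPM with FTY720 and 6770 to 7666 CPM with placebo. Microglia markers overlapped over all mice, at 284 to 551 CPM with FTY720 and 339 to 472 CPM with placebo, with a median log2 fold change of -0.0022 and none of 10 past that limit. With the digit 3 their sum was 284 to 331 CPM in FTY720 and 339 to 412 CPM in placebo mice, and with the digit 1 it was 417 to 551 CPM in FTY720 mice around 472 CPM in the placebo mouse. Within the digit 3 all 10 microglia markers were negative, with a median of -0.33. At that limit 3 were lower, C1qa (-0.76), Fcrls (-0.47) and Tmem119 (-0.80), beside 793 of all 17656 genes called lower there. Of 12 mural cell markers tested only Rgs5, a pericyte gene, passed (0.54, standard error 0.14), with 6 positive, 6 negative and a median of 0.01, and with the digit 3 Pdgfrb (0.30) and Myh11 (0.89), a smooth muscle gene, passed as well. Slc6a13 (-0.35) was the only one of 8 fibroblast markers past the limit over all mice, with a list median of 0.05. Within the digit 3 that median was -0.12 and none of the 8 passed. Astrocyte, neuron and choroid plexus markers had medians of -0.05, 0.001 and 0.11, with none of 10 in each list past the limit over all mice, and with the digit 3 the neuron genes Tubb3 (-0.34) and Rbfox3 (-0.28) were lower. Red cell markers reached 40.5 CPM in P3-612 and at most 17.7 CPM in every other mouse.

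Further transport genes of brain endothelium were split almost evenly between higher and lower values. Of 40 such carriers, pumps and receptors, 18 had a positive log2 fold change and the median was -0.02. Atp10a, a lipid flippase, was the only one with an unadjusted p under 0.05 (0.75, standard error 0.23), with 13.04 ± 3.96 CPM (SD, n = 6) in FTY720 mice against 7.77 ± 1.71 CPM (SD, n = 4). Within the digit 3 the insulin receptor gene Insr (0.34) and the thiamine carrier gene Slc19a3 (0.65) were also past that limit. Bsg, the chaperone of Slc16a1, had -0.17 (standard error 0.19).

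**Figure D4:**
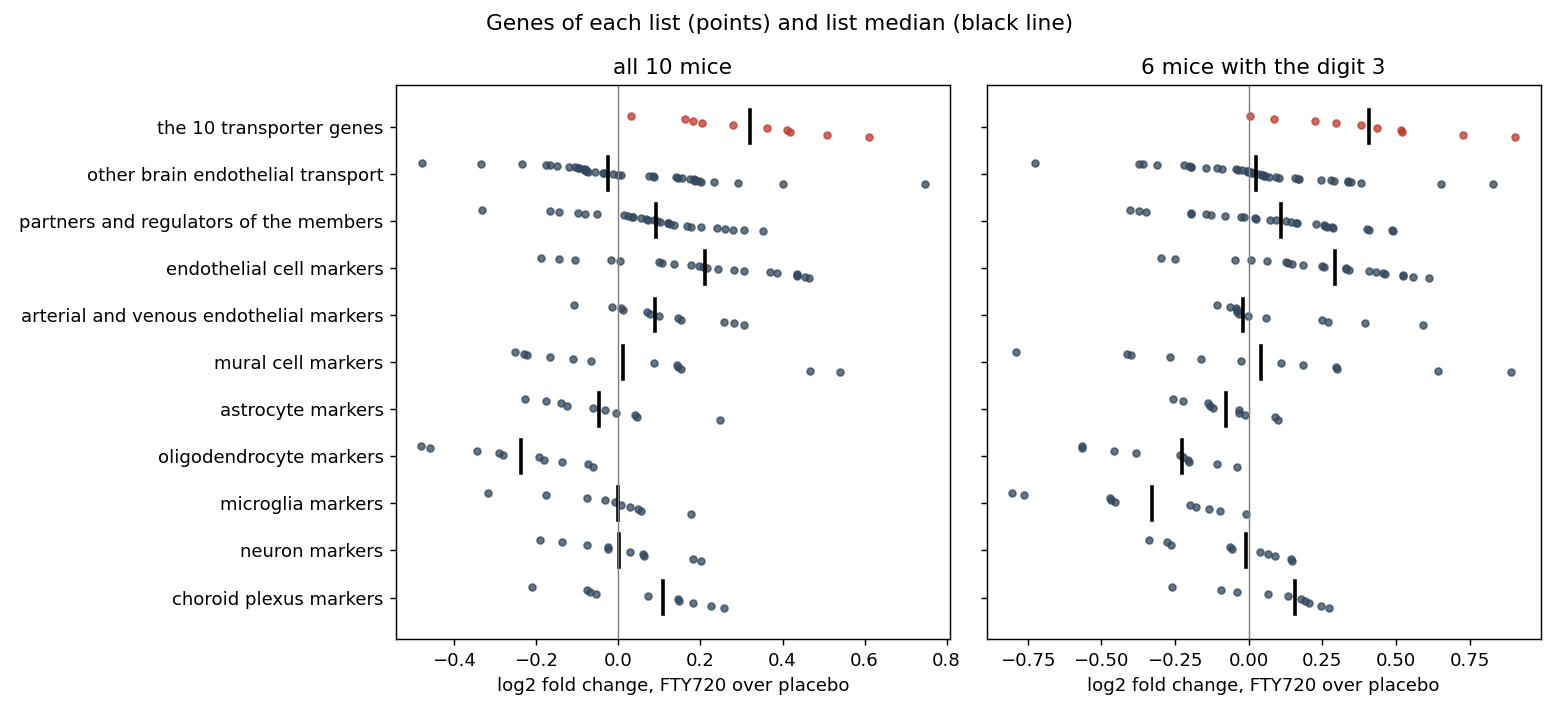
Log2 fold change of FTY720 over placebo (x axis) for the genes of each list (points) with the list median (black line), over all 10 mice (left) and the 6 mice with the digit 3 (right). The 10 transporter genes, in red, had medians of 0.32 and 0.41, the endothelial markers 0.21 and 0.29, and the other brain endothelial transport genes -0.02 and 0.03.

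Partners and regulators of the 10, including the Wnt pathway that maintains the barrier, nuclear receptors, hypoxia factors and iron regulatory proteins, numbered 30, of which 28 passed the filter. Apcdd1, a Wnt target of brain endothelium, was higher with FTY720 (0.31, standard error 0.12), and Nr1h2, a sterol receptor gene, was lower (-0.33, standard error 0.13), both at an unadjusted p under 0.05, and the list median was 0.09. Within the digit 3, Fzd4 (0.49), Reck (0.40) and Hif1a (0.28) were also higher and Nkd1 (-0.35) lower at that limit. Of 13 iron handling genes, the ferroxidase gene Cp passed over all mice (0.39, standard error 0.17), and within the digit 3 Cp (0.60), its relative Heph (0.52) and Tfrc were higher and the ferritin gene Ftl1 (-0.63) lower. Of 10 genes of thyroid hormone transport and conversion only Slc7a5, itself one of the 10 transporters, passed. Of 11 genes of glucose and lactate handling none did, the most abundant being Ldhb (-0.17), Hk1 (0.03) and Ldha (-0.04).

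The members were chosen with this contrast known, so their calls within their own families are not evidence that they stand out there. Over all genes 1.04% were called higher with FTY720 and 277 of 17665 lower. Of 39 ABC transporter genes tested, the 3 with an unadjusted p under 0.05 were Abcb1a, Abcg2 and Abcc4, and the family median was 0.01. Slco1a4 was the only one of 8 SLCO genes, and none of 10 SLC2 genes passed. In the SLC7 family Slc7a5 was higher and Slc7a10, an astrocyte and neuron carrier of small neutral amino acids, lower (-0.27, standard error 0.11), of 12 tested. Slc16a11 was lower (-0.45, standard error 0.18) among 14 SLC16 genes, and it was higher with the digit 3 (0.44, adjusted p = 0.0358 by edgeR).

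The profiles over the 10 mice were compared by the root mean square difference of log2 CPM after scaling each gene to a mean of 0 and an SD of 1. Among the 10, Abcb1a and Slco1a4 were most alike (0.52), then Abcc4 and Slc7a5 (0.60), and Slc2a1 and Tfrc least alike (1.71). Of 11762 protein-coding genes with a mean of at least 5 CPM, the nearest to Abcg2 were Peli1 (0.39), Cavin2 (0.45), a caveola gene, and Rgs5 (0.47). Abcc4 lay nearest to Zc3hav1l (0.40), Adgrf5 (0.45) and Xdh (0.45), and Slco1c1 to Mat2a (0.27), the endothelial cadherin gene Cdh5 (0.45) and Uaca (0.45). For Abcb1a they were Trp53inp1 (0.27), S100pbp (0.29) and Jakmip3 (0.35), and for Slco1a4 Cnot6 (0.28), Plekha1 (0.30) and Dek (0.31). Slc2a1 lay nearest to Tinagl1 (0.36), Efnb1 (0.39) and Nfkbia (0.40), and Tfrc to Hs6st2 (0.28), Nucks1 (0.31) and Eny2 (0.31). The remaining members had nearest genes at 0.29 to 0.42. All profiles share the same 10 libraries, including their digit, so likeness here is a description only.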

How the data were processed

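Brain RNA of 10 mice was sequenced from libraries made with the NEBNext Ultra RNA kit, which does not mark strand. Per the labels' processing notes, CASAVA 1.8, fastp, HISAT2 2.0.5, featureCounts 1.5.0-p3 and DESeq2 1.20.0 were used on GRCm38/mm10. The authors deposited counts per gene and mouse without normalization. The authors also deposited FPKM values per gene and mouse, used for levels between genes. Strand setting and annotation release were not given in the sources used here.

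Counts of all genes were filtered by filterByExpr, scaled by TMM and fitted with edgeR 4.0.16 (quasi-likelihood, R 4.3.3), with Benjamini-Hochberg adjustment over all genes tested. Each standard error was obtained by dividing the fitted log2 ratio by the root of its F statistic. Mice of 1 group are separate animals. DESeq2 1.42.0, limma 3.58.1, other scalings, filters and covariates, and leaving out each mouse were alternatives, and the procedure was tested on simulated data. No pair of libraries agreed within counting noise. The 10 genes and all lists were chosen with earlier results of these data known. Genes were named by fixed rules: all 10 members, list and family members with an unadjusted p under 0.05 or else the 3 most abundant, the 3 nearest profiles, Slc20a2 and close paralogs. List genes past that limit only within the digit 3, Bsg, and the endothelial markers named as negative were chosen after their values were seen. Scaling to endothelial markers in fits with the digit was added after seeing the data. Positions and exons were compared with GENCODE M21.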

Additional observations from a re-analysis of the deposited data

Results flagged for a closer look

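In 3 of 20 sets of values (10 genes in each treatment group), the mouse at one end lay far from the others by Dixon's criterion, which chance meets in about 1 of 20 sets. Abcb1a was 27.7 CPM in the placebo mouse P3-904, against 21.7 CPM in the next placebo mouse. Slc2a1 was 122 CPM in the FTY720 mouse F1-918, against 88.3 CPM in the next FTY720 mouse. Mfsd2a was 18.3 CPM in the placebo mouse P1-623, the only placebo mouse with the digit 1, against 15.9 CPM in the next placebo mouse.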

How the results depend on the processing

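Over all mice, the 10 genes kept positive log2 fold changes by DESeq2, limma-voom, RLE and upper-quartile scaling, both filters, both FPKM pseudocounts (0.1 and 1) and the leading digit of the mouse number as covariate, with 4 to 6 of them at an unadjusted p under 0.05. The genes called among all rose from 461 to 1117 without a filter, 2256 with the digit as covariate and 1283 within the digit 3, where the median of the 10 was 0.41. Scaled to endothelial markers, 1298 genes, mostly lower, and 0 of the 10 were called, with a median of 0.14. With the covariate that scaling gave 4188 genes (29 higher, 4159 lower, 282 adjusted), 2 of the 10, both higher, and a median of 0.079, and within the digit 3 it gave 3413 (27 higher, 3386 lower), 2, both higher, and 0.16. Under it Slco1c1, Slc2a1 and Slc16a1 turned to -0.040, -0.0051 and -0.14 over all mice, to -0.0083, -0.13 and -0.12 with the covariate and to -0.036, -0.16 and -0.23 within the digit 3. By construction this scaling removes what the markers share with the 10. DESeq2 gave 24 genes an adjusted p under 0.05 with the covariate and 5 within the digit 3, in each case 1 of the 10, Slco1a4, against 0 by edgeR, which is no evidence for Slco1a4 since the list was chosen with this contrast known.

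Leaving out each mouse gave 281 (P3-907) to 984 (P3-904) genes over all mice, 300 without P3-612, 2 (P3-612 or P3-907) to 6 of the 10, 3 without F3-609 or F3-908, and medians of 0.26 to 0.42. With the covariate it gave 1042 (F3-609) to 3702 (P3-904) genes, 1293 without P3-907, 1302 without P1-623 and 1356 without P3-612, 0 to 2 adjusted (2 without F3-908), 3 (P3-612) to 7 of the 10 and medians of 0.24 to 0.40. Within the digit 3 it gave 388 (F3-609) to 3896 (P3-904) genes, 399 without P3-907, and 6 to 7 of the 10. Slc16a1 ran from -0.038 to 0.14 over all mice (negative without F3-908, P1-623 or P3-904) and from -0.10 to 0.12 within the digit 3 (negative without F3-908 or P3-904), where Slc2a1 ran from -0.036 to 0.16 (negative without P3-904). For the digit, 2 of the 10 were called, 4 without a filter and 1 on log2(FPKM + 0.1), on log2(FPKM + 1) or with the leading digit added, where Slc2a1 was lost, and the median was 0.034 under endothelial scaling. Leaving out a mouse gave 2593 (P1-623) to 6000 (P3-612) genes, 2908 without F3-609, and 1 to 3 of the 10. Abcc4, at -0.02, turned to 0.00046 by limma-voom and 0.00050 on log2(FPKM + 1), and ran from -0.16 to 0.079 with a mouse left out (positive without F1-918, P3-612 or P1-623). The causes were not tested. No paired analysis was possible because the groups compared share fewer than 2 label numbers.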
